A study of Mus musculus with 6 samples.

Results

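The 33 genes described here carry glucose into the cell, through glycolysis to pyruvate and lactate, into the mitochondrial pyruvate dehydrogenase reaction, or into the pentose phosphate pathway. They were chosen by name, as a list of transporters, enzymes and regulators of these routes, from the 55536 gene identifiers counted in each library, and all 33 were found and had enough reads to be tested. The libraries came from CAD, an SV40-transformed mouse line of central nervous system origin, from a male C57BL/6 x DBA/2 background and used at less than 10 passages. In the dexamethasone group (3 libraries) the cells had been kept for 5 days in medium with 100 µM dexamethasone, a synthetic glucocorticoid, and 1% fetal bovine serum. In the undifferentiated group (3 libraries) they proliferated in the same basal medium with 8% serum and no added steroid. The steroid and the lower serum were changed together, so their contributions cannot be told apart. Samples are described as independent, but no label says that each came from its own culture. The p-values therefore rest on the variation among these libraries, some of which may be technical.

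Glycolysis splits glucose into pyruvate in the cytosol, and many of its steps are served by isozymes, related enzymes from separate genes that differ in kinetics, regulation and tissue. Proliferating cells commonly reduce much of the pyruvate to lactate, whereas brain has its own forms of aldolase and enolase, and neurons are known to send much of their pyruvate into mitochondria. Entry into the citric acid cycle is controlled by the pyruvate dehydrogenase kinases, which switch pyruvate dehydrogenase off, and the pentose phosphate pathway draws on glucose 6-phosphate to make NADPH and ribose.

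Each library held 6411105 to 8757992 counted reads, and 12664 genes passed the filter on low counts. Levels are given as CPM, the reads of a gene per 1000000 counted reads after trimmed-mean scaling of library sizes, and 3 reads corresponded to 0.343 to 0.468 CPM. A gene was called when its Benjamini-Hochberg adjusted p from edgeR's quasi-likelihood test over all 12664 genes was under 0.05. Of 12 catecholaminergic and neuronal markers 9 could be tested, of which 6 rose and 3 fell, and their summed level was 10330 to 12480 CPM in dexamethasone libraries and 1859 to 1935 CPM in undifferentiated libraries, most of it from Chgb. The noradrenaline transporter Slc6a2, one of these markers, had no read in any library. Summed endothelial markers measured 33.4 to 35.7 CPM in dexamethasone libraries and 18.3 to 21.3 CPM in undifferentiated libraries, and summed fibroblast markers 24.2 to 26.7 CPM in dexamethasone libraries and 10.1 to 14.6 CPM in undifferentiated libraries. Most of the endothelial sum was Pecam1 and most of the fibroblast sum Dcn, while Cldn5 and Col3a1 had no read. Of 5 endothelial markers 1 could be tested and rose, and of 8 fibroblast markers 4 could be tested, of which 3 rose. Oligodendrocyte, Schwann cell, microglial and blood markers summed to under 5 CPM in every library. Whether these levels bear on the genes below was not tested.

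Dexamethasone-differentiated CAD cells had less RNA for most of the lower glycolytic enzymes and for lactate dehydrogenase A, and more for the brain and neuronal isozymes of aldolase and enolase. Of the 33 genes, 10 rose, 18 fell and 5 were not called. Genes that rose made up 30.3% of the 33, against 40.3% of all tested genes, and genes that fell made up 54.5%, against 38.6%. A change in either direction was called for 78.9% of all tested genes, so a call by itself does not set these genes apart. In bulk RNA, fewer cells of a type and less RNA per cell cannot be told apart.

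All 3 dexamethasone libraries lay above all 3 undifferentiated ones for 10 of the 33 genes, against 41.0% of all tested genes, and below them for 18, against 38.9%. For the remaining 5 the groups overlapped. At least 2-fold changes were called in 5 genes that rose, Aldoc, Eno2, Pdk2, Pdk1 and Pfkfb4, and in 3 that fell, Ldha, Eno1 and Pgam1. Over all tested genes 17.8% rose and 12.2% fell by that much. The median log2 fold change of the 33 genes was -0.13, beside 0.02 over all tested genes. With library totals alone in place of trimmed-mean scaling the median of all genes moved to 0.14, so fold changes under this size depend on the scaling.

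**Figure D1:**
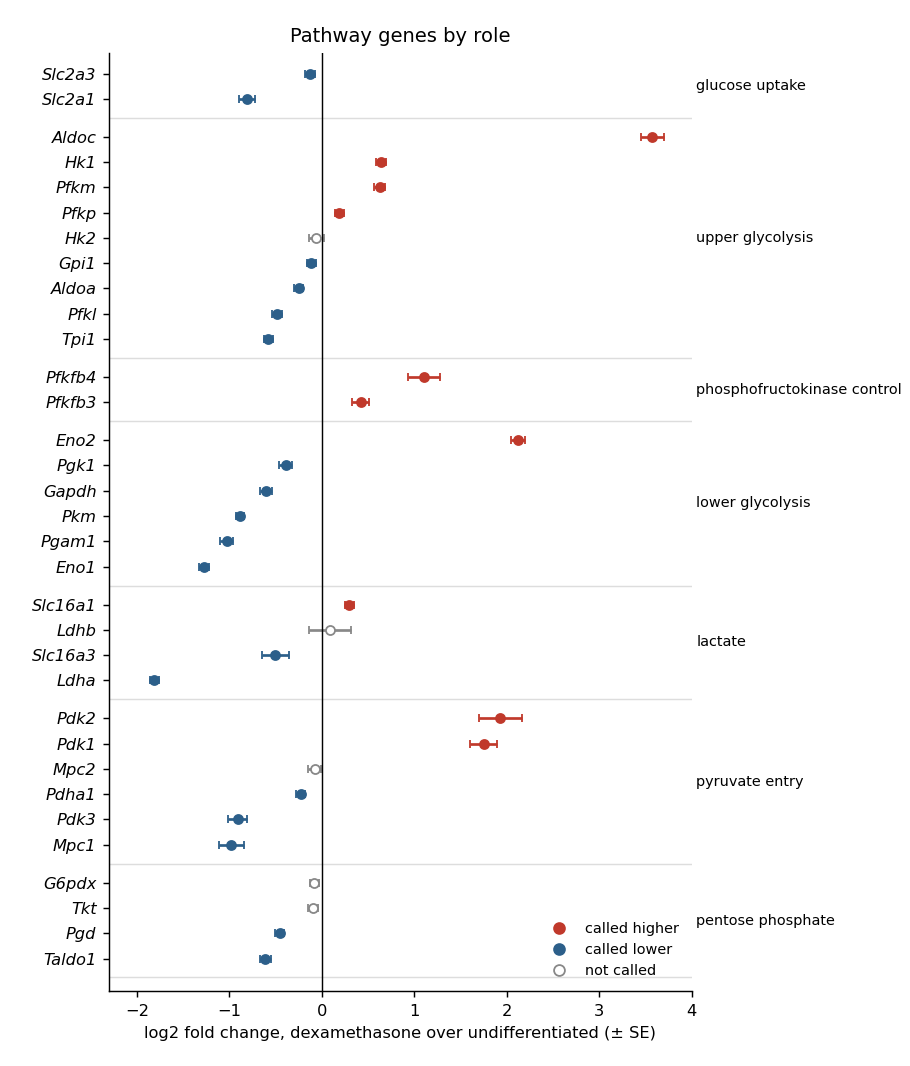
Log2 fold change of dexamethasone over undifferentiated libraries for each of the 33 genes (points, with standard errors as bars), grouped by role down the page, with 3 libraries in each group. Filled red points rose, filled blue points fell and open grey points were not called; Aldoc and Eno2 lie farthest to the right, and Ldha and Eno1 farthest to the left.

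The plot of fold changes by role shows that every role with more than 2 genes, except the pentose phosphate enzymes, held genes called in both directions. The roles are taken below in the order of the pathway.

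Both glucose carriers on the list were called lower in dexamethasone libraries, one of them on a small difference. Slc2a1, which encodes the widely expressed carrier GLUT1, measured 22.9, 27.3 and 24.3 CPM in dexamethasone libraries and 41.4, 45.1 and 43.8 CPM in undifferentiated libraries. The groups did not overlap, and the gene fell 1.75-fold (log2 fold change -0.81 ± 0.088 SE, adjusted p = 3.39e-09). Slc2a3, the high-affinity neuronal carrier GLUT3, averaged 175 ± 13.2 CPM in dexamethasone libraries and 192 ± 6.47 CPM in undifferentiated libraries (SD, n = 3 each), and the groups overlapped. Its log2 fold change of -0.13 had an adjusted p of 0.0388, which ranged between 0.00173 and 0.948 over 15 alternative analyses and missed 0.05 in 9 of them.

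In the upper part of glycolysis genes were called in both directions, and at the phosphofructokinase and aldolase steps isozymes of the same step were. Of 9 genes 4 rose, 4 fell and 1 was not called, with a median log2 fold change of -0.06. Hk1, the hexokinase of brain that phosphorylates incoming glucose, measured 181, 184 and 171 CPM in dexamethasone libraries and 116, 115 and 115 CPM in undifferentiated libraries, and rose 1.55-fold (adjusted p = 2.14e-11). Hk2, the inducible hexokinase of muscle and many tumours, averaged 52.0 ± 6.93 CPM in dexamethasone libraries and 53.8 ± 1.55 CPM in undifferentiated libraries, a difference that did not pass (log2 fold change -0.06 ± 0.082 SE, adjusted p = 0.508). Every dexamethasone library thus stood above every undifferentiated one for Hk1, whereas the groups overlapped for Hk2.

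Gpi1, which converts glucose 6-phosphate to fructose 6-phosphate, averaged 499 ± 4.03 CPM in dexamethasone libraries and 540.5 ± 16.9 CPM in undifferentiated libraries, a call (adjusted p = 0.0271) that was lost under 6 alternatives and turned to a log2 fold change of 0.01 with library totals alone. Phosphofructokinase, the committing step of glycolysis, is a tetramer of liver, muscle and platelet type subunits. Its muscle subunit Pfkm measured 161, 162 and 163 CPM in dexamethasone libraries and 109, 99.8 and 106 CPM in undifferentiated libraries, a 1.54-fold rise (adjusted p = 4.86e-11). The liver subunit Pfkl measured 167, 179.5 and 194.5 CPM in dexamethasone libraries and 265, 246 and 245 CPM in undifferentiated libraries, a 1.40-fold fall (adjusted p = 1.31e-08). The platelet subunit Pfkp rose 1.14-fold, with 297 ± 10.7 CPM in dexamethasone libraries and 260.1 ± 12.2 CPM in undifferentiated libraries. The groups did not overlap for any of the 3 subunits.

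The 2 bifunctional enzymes that set the level of fructose 2,6-bisphosphate, an activator of phosphofructokinase, both rose. Pfkfb4 measured 10.96, 12.4 and 9.08 CPM in dexamethasone libraries and 5.51, 4.84 and 4.87 CPM in undifferentiated libraries, a 2.15-fold rise (adjusted p = 2.61e-06). That rise rested on 30 to 39 reads per undifferentiated library, and the log2 fold change was 0.997 without dexamethasone replicate 2. Pfkfb3, the form with the highest ratio of kinase to phosphatase activity, measured 39.3, 34.7 and 41.3 CPM in dexamethasone libraries and 29.8, 29.9 and 25.6 CPM in undifferentiated libraries, a 1.34-fold rise (adjusted p = 1.66e-04). For both genes all dexamethasone libraries were above all undifferentiated ones.

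Aldolase splits fructose 1,6-bisphosphate into its triose phosphates, and its brain form was the gene among the 33 with the highest fold change. Aldoc (aldolase C, chr11:78322968-78327781, GRCm38) measured 60.9, 56.9 and 57.5 CPM in dexamethasone libraries and 3.68, 5.61 and 5.36 CPM in undifferentiated libraries. These levels came from 386 to 550 reads in each dexamethasone library and 26 to 44 reads in each undifferentiated library. Aldoa (aldolase A, chr7:126795234-126800751), the form of muscle and most proliferating cells, measured 1319, 1421 and 1364 CPM in dexamethasone libraries and 1713, 1560 and 1604 CPM in undifferentiated libraries, a 1.19-fold fall (adjusted p = 4.35e-05). Aldoa remained the more abundant form in both groups even so. Per kilobase of summed exon length (RPKM), Aldoa averaged 470.0 RPKM in dexamethasone libraries and 558 RPKM in undifferentiated libraries, while Aldoc averaged 17.9 RPKM in dexamethasone libraries and 1.496 RPKM in undifferentiated libraries.

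In brain, Aldoc is also known as a marker of astrocytes, so the fixed list of 10 astrocyte markers, which does not hold Aldoc, was read beside it. Only 2 of the 10 could be tested, and 1 of these, Fgfr3, rose. Gja1, Gjb6 and Slc4a4 had no read in any library, and Gfap had 4 to 7 reads per dexamethasone library and 1 to 4 reads per undifferentiated library. Their summed level was 31.45 to 33.1 CPM in dexamethasone libraries and 19.1 to 21.6 CPM in undifferentiated libraries, most of it from Fgfr3. Their part in the level of Aldoc was not tested.

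The coding sequences of the aldolases are set side by side because the comparison rests on telling their reads apart. The opening 90 coding bases, from GENCODE M21 transcripts, follow, 5′ to 3′ on the coding strand, with capitals at the 19 positions where the isozymes differ.
Aldoc: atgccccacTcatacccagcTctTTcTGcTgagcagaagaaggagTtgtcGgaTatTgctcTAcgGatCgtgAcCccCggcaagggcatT
Aldoa: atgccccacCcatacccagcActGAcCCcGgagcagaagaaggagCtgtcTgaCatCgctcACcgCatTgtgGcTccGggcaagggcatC
Over 1089 aligned coding bases the aldolases were 75.7% identical, and no window of 75 bases, the read length, occurred in both mRNAs.

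Tpi1, which interconverts the triose phosphates, ended the upper part and measured 284, 269.9 and 286 CPM in dexamethasone libraries and 436, 406 and 413 CPM in undifferentiated libraries. It fell 1.49-fold (adjusted p = 2.81e-11), with all dexamethasone libraries below all undifferentiated ones.

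In the lower part of glycolysis every gene on the list fell except enolase 2. Of its 6 genes 5 fell and 1 rose, and the median log2 fold change was -0.74. Gapdh, which oxidises glyceraldehyde 3-phosphate, averaged 52.9 ± 3.00 CPM in dexamethasone libraries and 80.2 ± 1.80 CPM in undifferentiated libraries, a 1.52-fold fall (adjusted p = 4.3e-09). Pgk1, the ATP-yielding phosphoglycerate kinase, averaged 76.6 ± 8.97 CPM in dexamethasone libraries and 100.5 ± 1.44 CPM in undifferentiated libraries, a 1.31-fold fall (adjusted p = 1.22e-05). The groups did not overlap for either gene.

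Pgam1, phosphoglycerate mutase, measured 43.6, 52.0 and 55.5 CPM in dexamethasone libraries and 102.5, 100.9 and 103.9 CPM in undifferentiated libraries, a 2.04-fold fall (adjusted p = 4.15e-13). Pkm, the pyruvate kinase of muscle, brain and proliferating cells, measured 628, 639 and 635 CPM in dexamethasone libraries and 1183, 1161 and 1162 CPM in undifferentiated libraries, a 1.84-fold fall (adjusted p = 4.32e-16). The dexamethasone libraries were well below the undifferentiated ones for both genes. The M1 and M2 splice forms of Pkm are summed in counts per gene and were not analysed here.

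Enolase converts 2-phosphoglycerate to phosphoenolpyruvate, and its 2 main genes moved in opposite directions. Eno1 (alpha enolase, the ubiquitous form, chr4:150236721-150248879) measured 250, 255 and 273 CPM in dexamethasone libraries and 661, 605.5 and 616 CPM in undifferentiated libraries. It fell 2.42-fold (log2 fold change -1.28 ± 0.052 SE, adjusted p = 2.11e-18). Eno2 (gamma enolase, the neuron-specific form, chr6:124760053-124769673) measured 87.5, 93.9 and 91.6 CPM in dexamethasone libraries and 20.8, 20.4 and 21.4 CPM in undifferentiated libraries. It rose 4.36-fold (log2 fold change 2.12 ± 0.076 SE, adjusted p = 1.49e-19), and neither gene's groups overlapped.

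The log2 ratio of Eno2 to Eno1 reads per kilobase was -1.32, -1.25 and -1.38 in dexamethasone libraries and -4.80, -4.70 and -4.65 in undifferentiated libraries. All dexamethasone ratios were higher, by 3.40 ± 0.058 (SE) on the log2 scale or 10.55-fold. Eno2 made up 28.6 ± 0.930% of the RPKM of the pair in dexamethasone libraries and 3.67 ± 0.182% in undifferentiated libraries. With the length of the principal transcript in place of summed exons, a choice added after seeing the data, the share was 20.3 ± 0.736% in dexamethasone libraries and 2.36 ± 0.119% in undifferentiated libraries. With the reads of Eno1's copies added as well it was 17.9 ± 0.727% in dexamethasone libraries and 2.02 ± 0.109% in undifferentiated libraries. Eno1 RNA therefore remained the more abundant of the pair in both groups. Summing Eno1 with its near-copy Eno1b left the difference in log2 ratio at 3.39.

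Of the 9 neuronal and catecholaminergic markers tested, the 6 that rose, Chgb among them, went the same way as Eno2, while Dbh fell 13.2-fold, Ddc fell 7.28-fold and Tubb3 fell by 0.32 on the log2 scale. Their part in the enolase values was not tested. As for the aldolases, reads of the 2 enolases can be told apart from each other, though copies of Eno1 elsewhere are a separate limit, given below. The opening 90 coding bases follow, again from GENCODE M21, 5′ to 3′ on the coding strand, with the 19 differing positions in capitals.
Eno2: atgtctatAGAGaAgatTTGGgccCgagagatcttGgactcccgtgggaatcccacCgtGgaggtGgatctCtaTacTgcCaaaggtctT
Eno1: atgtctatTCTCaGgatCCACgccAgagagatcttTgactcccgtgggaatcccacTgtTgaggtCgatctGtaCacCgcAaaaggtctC
Over all 1302 coding bases the enolases shared 978 identical positions (75.1%) and no window of 75 bases.

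**Figure D2:**
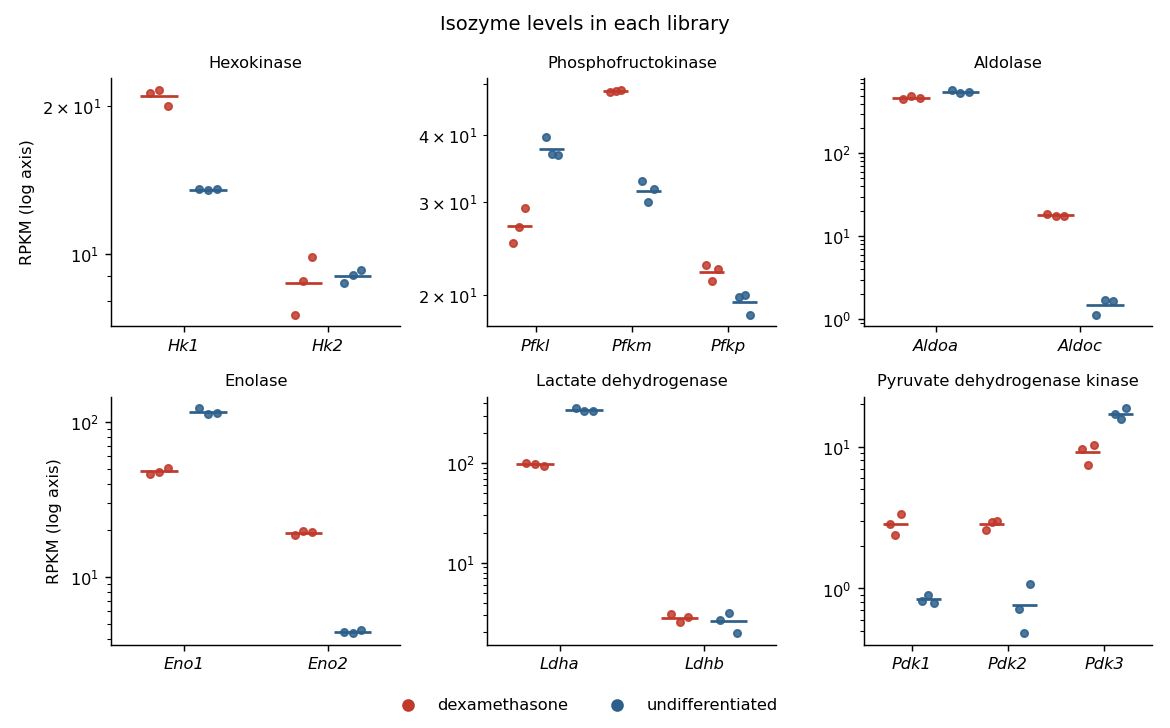
Level of each isozyme in each library (points) and group means (lines), in RPKM on log axes, for 6 enzymes, with dexamethasone libraries in red to the left of undifferentiated libraries in blue. Eno1 and Eno2 lie closer together in dexamethasone libraries (48.2 and 19.3 RPKM) than in undifferentiated libraries (117 and 4.44 RPKM), and Ldha and Pdk3 fell while Aldoc, Pdk1 and Pdk2 rose.

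The plot of isozyme levels sets these enolase values beside those of the other steps, several of which lie downstream of pyruvate.

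Among the lactate genes, lactate dehydrogenase A had the lowest fold change of all 33 genes. Ldha (chr7:46841475-46855627), the subunit that favours making lactate from pyruvate, measured 331, 325 and 314 CPM in dexamethasone libraries and 1187, 1110.0 and 1117 CPM in undifferentiated libraries. It fell 3.52-fold (log2 fold change -1.81 ± 0.049 SE, adjusted p = 2.56e-22), on 2111 to 2993 reads per dexamethasone library and 6882 to 8712 reads per undifferentiated library. Ldhb, the heart-type subunit that favours the reverse reaction, was low throughout, at 4.42 ± 0.366 CPM in dexamethasone libraries and 4.10 ± 0.951 CPM in undifferentiated libraries, and was not called (adjusted p = 0.735). The groups were far apart for Ldha and overlapped for Ldhb.

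Ldhb made up 2.80 ± 0.217% of the RPKM of the pair in dexamethasone libraries and 0.754 ± 0.178% in undifferentiated libraries. By principal transcript length the share of Ldhb was 1.82 ± 0.142% in dexamethasone libraries and 0.486 ± 0.115% in undifferentiated libraries. That share was higher in all dexamethasone libraries while the level of Ldhb itself was not called, and the log2 ratio of Ldhb to Ldha differed by 1.95 ± 0.213 (SE). The lactate carriers went opposite ways. Slc16a1, the widely expressed carrier MCT1, measured 311, 301 and 289.9 CPM in dexamethasone libraries and 246, 249 and 239 CPM in undifferentiated libraries, a 1.23-fold rise (adjusted p = 4.72e-06). Slc16a3, the low-affinity exporter MCT4, averaged 9.81 ± 0.979 CPM in dexamethasone libraries and 13.9 ± 1.88 CPM in undifferentiated libraries, a 1.42-fold fall (adjusted p = 0.0029). Neither carrier's groups overlapped.

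At the entry of pyruvate into mitochondria, 2 pyruvate dehydrogenase kinases rose and the most abundant one fell. Pdk1 (chr2:71873224-71903858) measured 22.1, 18.4 and 26.2 CPM in dexamethasone libraries and 6.36, 7.01 and 6.17 CPM in undifferentiated libraries, a 3.36-fold rise (adjusted p = 3.2e-11). Pdk2 (chr11:95026258-95041354) measured 8.19, 9.27 and 9.38 CPM in dexamethasone libraries and 2.26, 1.53 and 3.41 CPM in undifferentiated libraries, a 3.81-fold rise (adjusted p = 2.25e-08) that rested on 12 to 21 reads per undifferentiated library. Pdk3 (chrX:93764607-93832201) measured 24.6, 19.1 and 26.2 CPM in dexamethasone libraries and 43.3, 39.9 and 47.7 CPM in undifferentiated libraries, a 1.88-fold fall (adjusted p = 5.41e-09). All 3 kinases had groups that did not overlap.

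Per kilobase, Pdk3 made up 61.4 ± 2.72% of the RPKM of the 3 kinases in dexamethasone libraries and 91.5 ± 0.515% in undifferentiated libraries. Pdk1 made up 19.3 ± 0.928% in dexamethasone libraries and 4.54 ± 0.728% in undifferentiated libraries. Pdk2 made up 19.4 ± 3.15% in dexamethasone libraries and 4.00 ± 1.21% in undifferentiated libraries, so Pdk3 had the largest share in both groups. Pdk4, the form known as a glucocorticoid-responsive gene in muscle and liver, had no read in any library.

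The substrate of the kinases and the pyruvate carrier changed less or unevenly. Pdha1, the catalytic subunit of pyruvate dehydrogenase that the kinases phosphorylate, averaged 215 ± 9.27 CPM in dexamethasone libraries and 253 ± 11.04 CPM in undifferentiated libraries and fell (log2 fold change -0.23 ± 0.052 SE, adjusted p = 2.73e-04). With library totals alone its log2 fold change was -0.10 and the call was lost (adjusted p = 0.0706). Mpc1, a subunit of the mitochondrial pyruvate carrier, measured 8.53, 9.81 and 11.8 CPM in dexamethasone libraries and 21.3, 19.3 and 18.0 CPM in undifferentiated libraries, a 1.97-fold fall (adjusted p = 2.03e-07) with no overlap. Its partner Mpc2 averaged 62.1 ± 1.92 CPM in dexamethasone libraries and 65.8 ± 1.85 CPM in undifferentiated libraries and was not called (adjusted p = 0.269).

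Of the 4 pentose phosphate enzymes none rose, 2 fell and 2 were not called. G6pdx, which commits glucose 6-phosphate to the pathway, averaged 327 ± 9.49 CPM in dexamethasone libraries and 346 ± 7.38 CPM in undifferentiated libraries (log2 fold change -0.08 ± 0.048 SE, adjusted p = 0.126), and was not called although the groups did not overlap. Pgd, the second NADPH-yielding enzyme, measured 268, 263 and 256 CPM in dexamethasone libraries and 371, 364 and 344 CPM in undifferentiated libraries, a 1.37-fold fall (adjusted p = 3.43e-09). The groups did not overlap for Pgd.

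In the non-oxidative branch, Taldo1, transaldolase, measured 116, 114 and 132 CPM in dexamethasone libraries and 181, 184 and 186 CPM in undifferentiated libraries, a 1.53-fold fall (adjusted p = 2.08e-10). Its dexamethasone libraries were all below the undifferentiated ones. Tkt, transketolase, averaged 320.3 ± 20.8 CPM in dexamethasone libraries and 343 ± 17.5 CPM in undifferentiated libraries and was not called (adjusted p = 0.0923). Without dexamethasone replicate 3 its log2 fold change of -0.14 was called (adjusted p = 0.0361).

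Summed over all 33 genes the level was 1602 ± 15.6 RPKM in dexamethasone libraries and 2229 ± 65.8 RPKM in undifferentiated libraries, and no test was made of this sum. The 33 genes took 0.678 ± 0.0107% of counted reads in dexamethasone libraries and 0.838 ± 0.0234% in undifferentiated libraries. Lower glycolysis, most of whose sum was Pkm and Eno1, came to 267 ± 3.69 RPKM in dexamethasone libraries and 471 ± 8.96 RPKM in undifferentiated libraries. The lactate genes, most of whose sum was Ldha, came to 170.3 ± 4.94 RPKM in dexamethasone libraries and 404 ± 13.4 RPKM in undifferentiated libraries. Upper glycolysis, most of whose sum was Aldoa, came to 794 ± 15.1 RPKM in dexamethasone libraries and 907 ± 38.0 RPKM in undifferentiated libraries. As a share of counted reads, with no scaling and no division by length, upper glycolysis took 0.321 ± 0.00719% in dexamethasone libraries and 0.322 ± 0.0117% in undifferentiated libraries, and the groups overlapped. Only the small sum of the 2 phosphofructokinase regulators was higher in dexamethasone libraries, at 7.30 ± 0.158 RPKM, than in undifferentiated libraries, at 4.81 ± 0.365 RPKM.

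**Figure D3:**
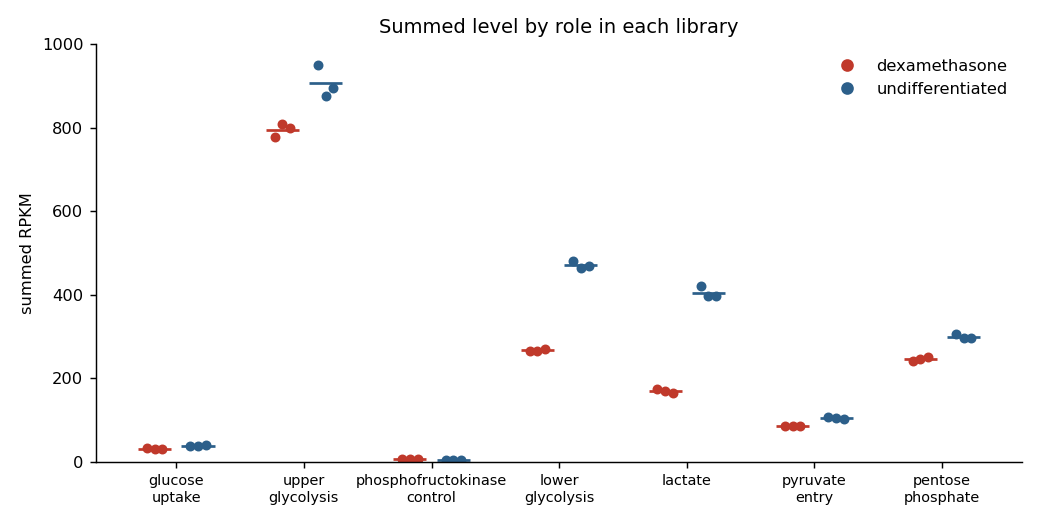
Summed level of the genes of each role, in RPKM on a linear axis from 0, in each library (points) with group means (lines), dexamethasone in red to the left of undifferentiated in blue. Lower glycolysis and lactate genes show the widest gaps between the groups, 267 against 471 RPKM and 170.3 against 404 RPKM.

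The plot of summed levels by role shows 6 roles with lower summed RPKM in dexamethasone libraries and 1 with a higher one. A sum is set mostly by its most abundant genes, so the balance within each step was also read as a ratio inside each library, which does not depend on how libraries are scaled.

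Of 11 isozyme ratios, 10 separated the groups without overlap, 7 of them higher and 3 lower in dexamethasone libraries. In a two-sided exact permutation test over the libraries each of these 10 gave p = 0.1, the smallest that 3 against 3 allows, and 0.11 after adjustment over the 11 ratios, so no ratio could pass 0.05 in this design. The widest differences, in log2 ratio, were 3.85 ± 0.240 (SE) for Aldoc over Aldoa, 3.40 for Eno2 over Eno1 and -2.67 ± 0.136 (SE) for Pdk3 over Pdk1. Pfkm over Pfkl differed by 1.11 ± 0.065 (SE), from ratios of 0.74 to 0.95 in dexamethasone libraries and -0.30 to -0.21 in undifferentiated libraries. Hk2 over Hk1 was lower by 1.62-fold and Slc16a3 over Slc16a1 by 1.73-fold in dexamethasone libraries.

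Slc2a3 over Slc2a1, Pfkp over Pfkl and Pfkfb4 over Pfkfb3 were higher in dexamethasone libraries by 0.68, 0.67 and 0.65 in log2 ratio. Pdk2 over Pdk1 overlapped between the groups (difference in log2 ratio 0.21 ± 0.418 SE, exact permutation p = 0.7). Among the phosphofructokinase subunits the order of levels depended on the length used. By summed exons Pfkm had the largest share in dexamethasone libraries (49.6 ± 0.914%) and Pfkl in undifferentiated libraries (42.6 ± 0.390%). By principal transcripts Pfkp led in dexamethasone libraries (40.6 ± 1.36%) and Pfkl in undifferentiated libraries (40.5 ± 0.584%).

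**Figure D4:**
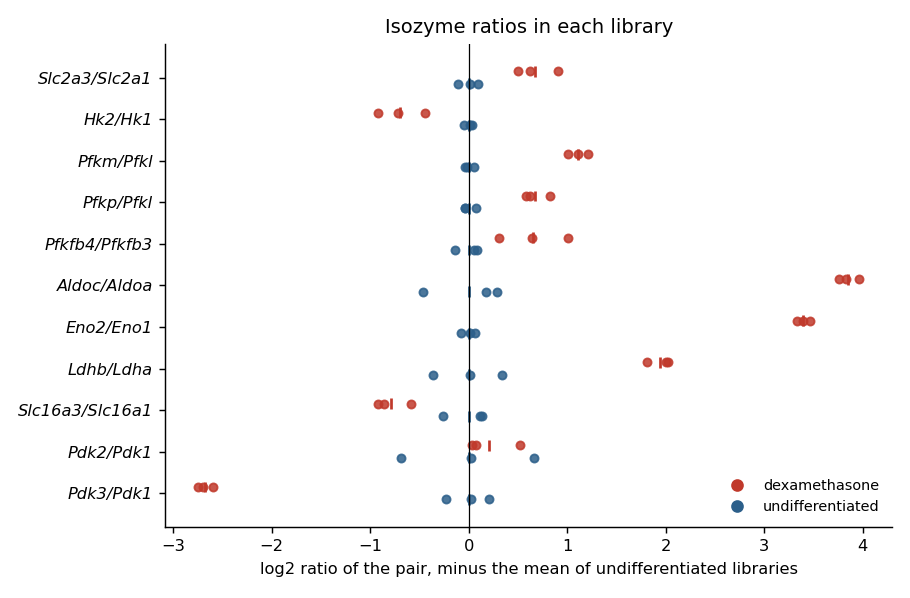
Log2 ratio of 2 genes of a step in each library, minus the mean of the undifferentiated libraries, for 11 ratios (points are libraries, short lines are group means, dexamethasone in red above undifferentiated in blue). Dexamethasone libraries lie to the right for 7 ratios and to the left for 3 with no overlap, and overlap the undifferentiated libraries for Pdk2 over Pdk1.

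The plot of isozyme ratios shows the spread behind these statements, which was widest for ratios with a low-count gene such as Pdk2, Ldhb or undifferentiated Aldoc.

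Several glycolytic genes have near-identical copies elsewhere in the genome, and this limited what their counts held. Of the 75-base windows of the Gapdh mRNA, 80.3% also occurred in at least 1 of 121 other genes, as did 67.5% for Pgk1, 65.4% for Eno1, 40.6% for Pgam1 and 24.3% for Mpc1. The share was 16.7% for Ldhb, 15.6% for Pkm, 10.0% for Gpi1, 5.4% for Ldha and 0 for Aldoc, Eno2, Hk1, Pfkm and the 3 Pdk genes. The levels of Gapdh, Pgk1, Eno1, Pgam1 and Mpc1 relative to other genes are thus uncertain. So is the summed level of lower glycolysis, which all of these genes but Mpc1 enter. Slc2a1, Slc2a3, Pfkm, Pfkfb3, Pkm, Slc16a1, Mpc2 and Tkt overlap another annotated gene on their own strand, and reads in such overlaps may have gone uncounted, which was not tested. Gapdh, usually among the most abundant mRNAs of a cell, averaged only 12.8 RPKM in dexamethasone libraries and 19.4 RPKM in undifferentiated libraries, whereas Tpi1 averaged 102 RPKM in dexamethasone libraries and 152 RPKM in undifferentiated libraries.

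A processed pseudogene of Gapdh on chromosome 2, Gm13394, took more reads than Gapdh itself in every library. It had 821, 1280 and 913 reads in dexamethasone libraries and 1442, 1728 and 1201 reads in undifferentiated libraries. Gapdh (chr6:125161715-125166467) had 486, 454 and 371 reads in dexamethasone libraries and 577, 613 and 498 reads in undifferentiated libraries. The pseudogene differed from the 999 coding bases of Gapdh at 1 position (99.9% identity). Coding bases 301 to 390 of Gapdh and the matching stretch of the copy are shown from the GENCODE M21 transcripts, with that position in capitals.
Gapdh: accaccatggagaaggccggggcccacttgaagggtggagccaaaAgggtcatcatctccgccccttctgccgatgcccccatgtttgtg
Gm13394: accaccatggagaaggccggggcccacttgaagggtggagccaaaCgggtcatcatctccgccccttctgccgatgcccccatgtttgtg
When reads of the pseudogenes that share a window, and of Eno1b, were added to their parent gene, an alternative chosen after seeing the data, 114 of the 121 genes entered for Gapdh, and other protein-coding and non-coding genes did not. Gapdh then had 1614, 2040 and 1485 reads in dexamethasone libraries and 2389, 2722 and 1976 in undifferentiated libraries. Its log2 fold change was -0.70, beside -0.60 for the gene alone, and the counts of genes called stayed at 10 higher and 18 lower. The log2 fold changes of Eno1, Pgam1, Pgk1 and Pkm with these copies were -1.28, -1.04, -0.39 and -0.88. For Pgk1 and Pgam1 the sum could change little, because their copies held almost no reads. In dexamethasone libraries Pgk1 had 784, 643 and 489 reads alone and 785, 643 and 489 with copies. Pgam1 had 394, 477 and 373 alone and 395, 478 and 373 with copies. Any reads that fitted several places and went uncounted are not restored by adding copies, so unchanged values do not remove this limit. Mpc1, whose copy Mpc1-ps had 37 to 105 reads per library, moved from -0.98 to -1.02, which is past 2-fold. Ldhb moved from 0.086 to 0.002 and stayed uncalled. By principal transcript length with copies added, its share of the Ldha and Ldhb pair was 1.80% in dexamethasone libraries and 0.511% in undifferentiated libraries.

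**Figure D5:**
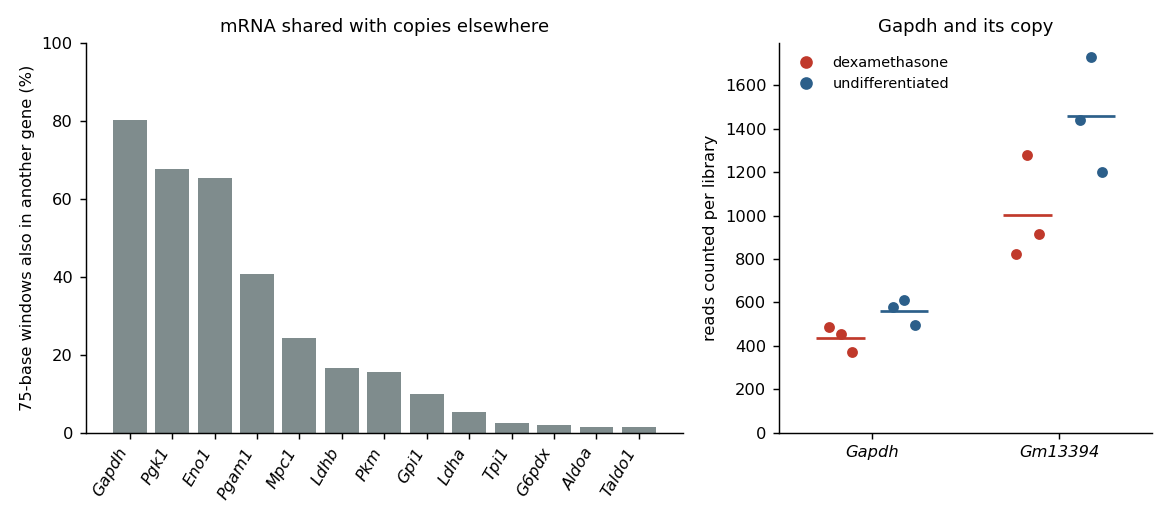
Left, percent of 75-base windows of each mRNA that also occur in another gene elsewhere, for the 13 of the 33 genes with any. Right, reads counted per library for Gapdh and its copy Gm13394 (points, with group means as lines, dexamethasone in red to the left of undifferentiated in blue), where the copy has more reads than Gapdh in all 6 libraries.

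The plot of shared windows marks the genes whose levels carry this limit. The isozymes that rose most, Aldoc and Eno2, are not among them. Their partners in the ratios, Aldoa (1.5% of windows) and Eno1 (65.4%), are.

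The promoters of the 33 genes were searched for short motifs in the 250 bases before the RefSeq transcription start (GRCm38.p6), on both strands. A promoter was listed for 32 of the 33 genes. The letters ACGTG, the core bound by hypoxia-inducible factors, occurred in 11 of 32 (34.4%), beside 16.6% of 27025 promoters of all genes. It was found in 4 of the 10 genes that rose and in 6 of the 17 with a promoter that fell. The E-box CACGTG, which contains ACGTG and is bound by MYC and carbohydrate-response proteins, occurred in 3 of 32 (9.4%), beside 6.05% of all promoters, and the 3 were Pdk2, Pfkfb3 and Slc16a1, of the 10 genes that rose. AGAACA, the core hexamer of glucocorticoid receptor sites, occurred in 7 of 32 (21.9%), beside 16.2% of all promoters, in 2 of the 10 that rose and 5 of the 17 that fell. The full glucocorticoid response palindrome occurred in 0 of 32, beside 0.0037% of all promoters. The shares were built by unlike rules. For the 32 genes the promoter nearest the start of the principal transcript was used, and for all genes the first one listed. The 27025 promoters also include genes too low to be tested here. The shares are thus not strictly comparable, and their differences were not tested. These matches are a description of letters in a short window.

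The 3 promoters with an E-box are shown because they are the only ones among the 32 that hold it, 5′ to 3′ on the gene's strand with the E-box in capitals. They are RefSeq sequences of GRCm38.p6 at chr11:95041372-95041621 (minus strand) for Pdk2, chr2:11502091-11502340 (minus strand) for Pfkfb3 and chr3:104638414-104638663 (plus strand) for Slc16a1.
Pdk2: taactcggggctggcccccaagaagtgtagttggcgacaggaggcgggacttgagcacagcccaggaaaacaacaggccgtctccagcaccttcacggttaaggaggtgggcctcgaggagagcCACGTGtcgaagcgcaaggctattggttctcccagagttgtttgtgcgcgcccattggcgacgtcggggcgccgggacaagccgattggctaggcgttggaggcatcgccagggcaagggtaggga
Pfkfb3: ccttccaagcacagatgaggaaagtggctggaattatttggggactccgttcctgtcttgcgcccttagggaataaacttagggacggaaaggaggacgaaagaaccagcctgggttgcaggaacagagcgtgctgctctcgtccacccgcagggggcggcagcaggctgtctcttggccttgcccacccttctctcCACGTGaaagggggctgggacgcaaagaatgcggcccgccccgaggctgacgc
Slc16a1: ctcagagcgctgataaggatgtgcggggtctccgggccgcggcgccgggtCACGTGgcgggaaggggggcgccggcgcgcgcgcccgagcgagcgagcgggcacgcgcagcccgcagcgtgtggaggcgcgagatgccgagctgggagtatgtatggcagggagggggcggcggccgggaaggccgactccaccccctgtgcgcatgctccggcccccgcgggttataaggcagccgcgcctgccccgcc

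Beyond the 33 genes, 64 other genes of the same and adjoining routes were listed and 42 could be tested, of which 15 rose, 18 fell and 9 were not called, with a median log2 fold change of -0.12. These counts were 35.7% higher and 42.9% lower of the 42, near the 40.3% and 38.6% of all tested genes. The named genes that rose included Gys1, Pygl and Khk. Gys1, muscle-type glycogen synthase, measured 98.2, 104.9 and 112 CPM in dexamethasone libraries and 32.1, 30.2 and 31.8 CPM in undifferentiated libraries, a 3.34-fold rise. Pygl, the liver form of glycogen phosphorylase, averaged 38.1 ± 3.57 CPM in dexamethasone libraries and 10.9 ± 0.531 CPM in undifferentiated libraries, a 3.50-fold rise. Khk, which phosphorylates fructose, rose 5.78-fold, to 12.4 ± 0.586 CPM in dexamethasone libraries, against 2.16 ± 0.337 CPM in undifferentiated libraries. The groups did not overlap for any of these 3 genes.

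Pck2, the mitochondrial phosphoenolpyruvate carboxykinase, measured 203, 218 and 229.9 CPM in dexamethasone libraries and 57.7, 51.2 and 52.6 CPM in undifferentiated libraries, a 4.02-fold rise (adjusted p = 1.09e-20). Pck1, the cytosolic form known as a glucocorticoid target in liver, had no read. The sugar carriers Slc2a6 and Slc2a8 rose 3.40-fold and 3.01-fold, with no overlap between groups.

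The named genes that fell included 2 that handle ribose 5-phosphate, Prps1 and Rpia, whereas Prps2, a relative of Prps1, was not called (log2 fold change -0.18, adjusted p = 0.137). Prps1, which makes phosphoribosyl pyrophosphate for nucleotide synthesis, measured 21.4, 19.9 and 18.6 CPM in dexamethasone libraries and 56.0, 52.8 and 59.3 CPM in undifferentiated libraries, a 2.78-fold fall (adjusted p = 7.4e-15). Rpia, ribose 5-phosphate isomerase, fell 2.31-fold, to 6.80 ± 1.12 CPM in dexamethasone libraries, against 15.6 ± 0.480 CPM in undifferentiated libraries. Dlat, the E2 subunit of pyruvate dehydrogenase, fell 1.77-fold, with 89.6 ± 1.48 CPM in dexamethasone libraries and 158 ± 3.28 CPM in undifferentiated libraries. Pgp, phosphoglycolate phosphatase, fell 1.89-fold, Gpt, an alanine aminotransferase, 1.76-fold, and Eno4, a testis-associated enolase-like gene, 3.31-fold. Gpt was low, at 3.81 CPM in dexamethasone libraries and 6.64 CPM in undifferentiated libraries. Gpt2, the more abundant alanine aminotransferase, instead rose 2.45-fold, with 121 ± 4.25 CPM in dexamethasone libraries and 49.4 ± 1.55 CPM in undifferentiated libraries.

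Of 17 listed regulators of these routes 12 could be tested, of which 4 rose (33.3%, against 40.3% of all tested genes), 6 fell (50%, against 38.6%) and 2 were not called. Hif1a, the oxygen-regulated subunit of hypoxia-inducible factor 1 and a known activator of glycolytic genes, measured 685, 737 and 683 CPM in dexamethasone libraries and 353, 390.3 and 407 CPM in undifferentiated libraries. Its RNA rose 1.83-fold (adjusted p = 2.1e-14) with no overlap between groups. Mycn, a MYC family factor of neural progenitors, measured 28.8, 29.9 and 31.1 CPM in dexamethasone libraries and 163, 173.5 and 154 CPM in undifferentiated libraries, a 5.48-fold fall (adjusted p = 4.34e-22). Myc itself averaged 250.4 ± 7.70 CPM in dexamethasone libraries and 223 ± 10.2 CPM in undifferentiated libraries, a 1.12-fold rise (adjusted p = 0.00558).

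Txnip, which promotes the removal of glucose carriers from the cell surface, measured 100.2, 100.6 and 90.1 CPM in dexamethasone libraries and 3.39, 3.19 and 4.54 CPM in undifferentiated libraries, and rose. Its relative Arrdc4 had no read in any library. Ddit4, a stress and glucocorticoid-induced inhibitor of mTORC1, rose, and Trp53, the p53 gene, fell 1.86-fold. Prkaa1, a catalytic subunit of AMP-activated kinase, fell 1.19-fold, with 118 ± 7.08 CPM in dexamethasone libraries and 141 ± 5.91 CPM in undifferentiated libraries. The prolyl hydroxylases Egln1 and Egln3, which mark HIF1A for destruction, fell 1.14-fold and 1.19-fold. Both calls were lost with library totals alone (adjusted p = 0.307 and 0.0618). Of 14 alternatives, 12 kept the call of Egln1 and 13 that of Egln3.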

How the data were processed

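Messenger RNA of 6 CAD libraries, 3 per group, was sequenced in 75-base reads. The deposited values are raw read counts per gene, which the authors made with featureCounts 1.6.4 over the exons of Ensembl release 96, with strand setting 1, per the file headers. Per the submitters' processing notes, the build was GRCm38.p6 and the tools, whose roles are not given, included HISAT2 2.2.0, Trim Galore 0.6.4 and DESeq2. The deposited summed exon length of each gene served for RPKM. All 55536 identifiers matched GENCODE M21.

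Counts were tested in R 4.3.3 with edgeR 4.0.16 (quasi-likelihood test, trimmed-mean scaling, filterByExpr with a minimum count of 10 and total of 15, group as the only term), adjusted by Benjamini-Hochberg over 12664 genes. Alternatives used DESeq2 1.42.0, limma 3.58.1, other scalings, filters and thresholds, each library left out, and the replicate number as a block. Isozyme ratios were tested by exact permutation with SciPy 1.17.1, and coding sequences aligned with Biopython 1.88. The test scripts were checked on simulated counts. Pairs of replicates differed by more than counting noise (chi-square over its degrees of freedom, 1.65 to 3.19), so none was merged. The annotation gives the symbol Aldoa to 2 identifiers, of which the one overlapping the RefSeq gene was used. The members and lists were chosen with earlier results of these data known. All 33 genes are named; of the other pathway genes and regulators, up to 6 per list and direction with the largest change were named among called genes that averaged 5 CPM or more in either group and showed no overlap, plus Txnip, Hif1a and Myc. Genes without a read, markers, and Prps2, Gpt2 and Eno3, relatives of named genes added after their values were seen, are given besides.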

Additional observations from a re-analysis of the deposited data

How the results depend on the processing

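Over 16 alternatives, 10 of the 33 genes were called higher each time and 15 to 18 lower. Of 495 comparisons of a single gene's result with its value under an alternative, 477 kept direction and call, 16 lost the call, 1 gained it and 1 turned. The turn was Gpi1, with a log2 fold change of 0.011 with library totals alone (adjusted p = 0.825); library totals moved the median of all genes from 0.02 to 0.14 on the log2 scale. The losses were those of Slc2a3, Gpi1 and Pdha1, and the gain was Tkt without dexamethasone replicate 3. The 10 isozyme ratios without overlap kept their direction under every alternative run for them, while Pdk2 over Pdk1 ranged from -0.13 to 0.54. With the replicate number as a block the counts were 10 higher and 16 lower, and Slc2a3 and Gpi1 lost their calls (adjusted p = 0.0541 and 0.0524). Same-numbered libraries did not deviate together (r = -0.0947, 0.0357 and -0.071). With 3 libraries per group, these correlations cannot settle whether the numbers pair the samples. Depth limited Ldhb and undifferentiated Aldoc, Pdk2 and Pfkfb4, each with at most 44 reads per library.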
